A study of Mus musculus with 4 samples.

Results

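The guanylate-binding proteins (GBPs) and the immunity-related GTPases (IRGs) were followed in infarcted mouse hearts through 9 genes: Gbp2, Gbp3, Gbp5, Gbp6, Gbp7, Irgm1, Irgm2, Igtp and Iigp1. They were picked by name, through the RefSeq accession that each array probe carries, and are 9 of the 22926 genes and unnamed features tested. All 9 had a probe, and for each the brightest probe was used. Hearts of VE-Cad-Cre-S1pr1 fl/fl mice (KO), in which the promoter of VE-cadherin, an endothelial junction protein, drives Cre recombinase against the floxed gene of the sphingosine 1-phosphate receptor S1pr1, were set against hearts of WT mice. All mice were male, and all had the left anterior descending coronary artery tied 5 days earlier, so that no uninjured heart enters the comparison and every array carries the response to infarction. The labels give neither the ages of the mice nor whether WT mice carried Cre or floxed alleles. There were 2 arrays per genotype, KO replicates 3 and 4 and WT replicates 1 and 3. The labels do not say that each array is a separate heart, so every p-value speaks of the spread among these arrays alone, part or all of which may be technical.

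GBPs are large GTPases, and IRGs smaller ones, that interferons, above all interferon-gamma, induce in many cell types. Both bind the membranes of vacuoles that hold bacteria or parasites, and they help to break these open and to expose their contents to cytosolic sensors. In mice, Irgm1, Irgm2 and Igtp (also known as Irgm3) form the regulatory GMS subgroup, which sits on the cell's own membranes and keeps effector IRGs such as Iigp1 (Irga6) inactive there.

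The 9 genes lie in a few clusters. By the order of protein-coding genes in RefSeq's GRCm38.p6 annotation, Gbp5, Gbp7, Gbp3, Gbp2b and Gbp2 follow each other on chromosome 3. Gbp8, Gbp9, Gbp4, Gbp10 and Gbp6 follow each other on chromosome 5. Gm12250, Igtp and Irgm2 are neighbours on chromosome 11, which also holds Irgm1, and Iigp1 is on chromosome 18.

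The DNA just upstream of these genes shows a feature that the choice of members did not use. RefSeq promoter windows of GRCm38.p6, from 250 bases before to 50 bases after the annotated start site, were at hand for 7 of the 9 genes, with 8 windows since Gbp3 has an additional one. Gbp6 and Iigp1 had no entry. The letters GAAANNGAAA, the core of an interferon-stimulated response element (ISRE), were searched on both strands, where the opposite strand reads TTTCNNTTTC. All 7 genes had a match, in 7 of 8 windows, against 3.44% of all 32851 promoter windows; the additional window of Gbp3 had none. The letters TTCNNNGAA, a palindrome that is the core of a gamma-activated site (GAS), stood in 4 of the 8 windows, against 8.30% of all. Gbp5, Gbp7, Igtp and Irgm2 held both, and 0.454% of all windows did. The ISRE-like and GAS-like matches of the 7 genes do not overlap each other. A match describes these letters and not a bound site.

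The stretches below carry these matches and are shown because they let the motif order of the genes be compared. Each is read 5′ to 3′ on the gene's own strand, with ISRE-like and GAS-like matches in capitals. On the plus strand, Gbp2 is shown over chr3:142620543-142620662, Gbp3 over chr3:142559924-142560043, Gbp5 over chr3:142496754-142496933, Gbp7 over chr3:142530216-142530335, Igtp over chr11:58199436-58199555 and Irgm2 over chr11:58214857-58214976. Irgm1 is on the minus strand and is shown over chr11:48871421-48871540.
Gbp2: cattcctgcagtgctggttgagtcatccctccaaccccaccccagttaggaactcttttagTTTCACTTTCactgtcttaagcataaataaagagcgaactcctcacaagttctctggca
Gbp3: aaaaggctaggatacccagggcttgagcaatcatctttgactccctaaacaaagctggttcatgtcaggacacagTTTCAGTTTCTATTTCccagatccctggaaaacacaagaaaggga
Gbp5: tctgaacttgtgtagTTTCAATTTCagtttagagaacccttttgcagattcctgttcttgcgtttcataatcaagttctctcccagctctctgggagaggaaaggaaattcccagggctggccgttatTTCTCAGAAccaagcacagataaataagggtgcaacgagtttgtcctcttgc
Gbp7: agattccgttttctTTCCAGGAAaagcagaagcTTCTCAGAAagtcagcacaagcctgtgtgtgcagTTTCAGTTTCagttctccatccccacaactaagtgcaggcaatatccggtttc
Irgm1: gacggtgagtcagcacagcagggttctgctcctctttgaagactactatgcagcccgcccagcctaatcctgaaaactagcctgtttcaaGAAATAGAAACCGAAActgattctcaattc
Irgm2: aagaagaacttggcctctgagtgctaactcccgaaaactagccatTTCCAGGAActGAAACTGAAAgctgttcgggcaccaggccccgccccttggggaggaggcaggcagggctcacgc
Igtp: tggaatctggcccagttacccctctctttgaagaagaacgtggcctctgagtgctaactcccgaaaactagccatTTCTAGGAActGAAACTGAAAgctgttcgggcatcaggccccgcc

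In the GBP genes of chromosome 3 the ISRE-like letters ran on the opposite strand in each case, and in Igtp, Irgm1 and Irgm2 on the gene's own strand. Gbp3 and Irgm1 each had a pair of ISRE-like matches that overlap. In Igtp the GAS-like match began 45 bases before the start site and the ISRE-like match 34 bases before it. Irgm2 carried the same pair of motifs at the same spacing, 75 and 64 bases before its start site. In a global alignment with gaps, the windows of these neighbouring genes were identical at 247 of 300 positions (82.3%). In the same alignment Irgm1 shared 62.7% with Igtp and 61.0% with Irgm2, and Gbp2 shared 59.7% with Gbp3. What unrelated windows share was not measured. Gbp5 was the gene whose ISRE-like match lay farthest out, 165 bases before the start site. An additional GAS-like match of Gbp5, which began 245 bases before the start site, is outside the stretch shown. Other interferon-responsive families also carried the ISRE-like letters: 4 of 6 windows of the oligoadenylate synthetase (OAS) genes and 7 of 13 of the other interferon-stimulated genes did. None of 12 windows of cardiomyocyte markers held them, which is near the share of all windows (3.44%), and 1 of 7 of macrophage markers did. The GAS-like letters stood in 3 of 7 windows of the other IRG and related genes and 4 of 11 of interferon-gamma signalling genes. They stood in 3 of 13 windows of the other interferon-stimulated genes, 1 of 6 of OAS genes and none of 12 of cardiomyocyte markers.

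**Figure D1:**
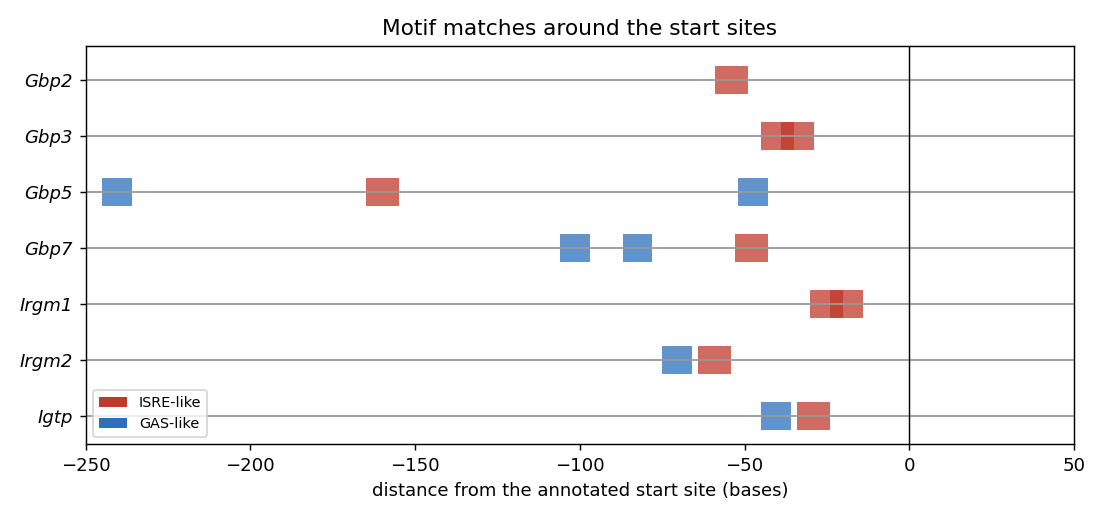
Positions of ISRE-like (red) and GAS-like (blue) matches in the promoter windows of the 7 genes; the x axis is the distance in bases from the annotated start site at 0, and each grey line is 1 window of 300 bases. Each of the 7 genes has an ISRE-like match, and Gbp5, Gbp7, Irgm2 and Igtp also have a GAS-like one.

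The arrays were checked before the GTPases were read. A level is the log2 signal of a probe after subtraction of the array's 75th percentile, and a difference is the mean KO level minus the mean WT level. S1pr1, the targeted gene, was at -2.69 and -2.30 on the KO arrays and at 0.43 and 0.95 on the WT arrays. That is a difference of -3.19 (SE 0.38), in the direction the labels give, with an adjusted p of 0.740 (limma). Which cells lost it was not measured. No feature among the 22926 passed an adjusted p of 0.05 by limma, a share of 0.00%, and 633 (2.76%) had an unadjusted p under 0.05. The file headers put the KO arrays at positions 2 and 1 and the WT arrays at positions 4 and 3, so position and genotype cannot be told apart. Whether the 4 arrays shared a slide was not established. Of all probes, 73.4% and 71.5% were well above background on the KO arrays, against 54.3% on WT replicate 1 and 69.4% on WT replicate 3. WT replicate 1 also stood apart in its cardiomyocyte markers, whose mean level over 10 genes was 6.14 and 6.98 on the KO arrays and 2.30 on WT replicate 1 and 6.35 on WT replicate 3. Cardiomyocyte markers were present on all 4 arrays, as a heart label requires. The GTPases are therefore also given array by array and without WT replicate 1.

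All 9 GTPases were well above background on all 4 arrays, so the filter on dim probes removed none of them. The mean was lower in KO for 7 of the 9 genes, against 45.2% of all features, and the median difference was -0.39, against 0.07 over all features. None of the 9 passed the test: adjusted p-values lay between 0.740 and 0.977 (limma, Benjamini-Hochberg over all features). None had an unadjusted p under 0.05 either, against 1.35% of all features lower and 1.41% higher in KO. None differed by 2-fold or more, against 7.51% lower and 10.2% higher. That count depends on single arrays. Without WT replicate 1 the median difference was -1.01, against 0.05 over all features. Without WT replicate 3 it was 0.30, against 0.07, and Iigp1 was at 1.08. How many of all features reached 2-fold in those fits was not counted. Irgm1, at -0.98, lay just inside 2-fold and passed it with median scaling (-1.09) and with normexp (-1.01). All 9 intervals of the difference (95%) held 0. The interval still held a 2-fold lower level in KO for 8 of the 9 genes, and a 2-fold higher level for 6. With 2 arrays against 2, an exact permutation test cannot give a p below 0.333.

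On chromosome 3, the GBP genes had KO levels inside or near the span of the WT levels. Gbp2, a GBP that reaches pathogen vacuoles and the cytosolic bacteria they release, was at 1.62 and 1.18 on KO replicates 3 and 4, and at 1.04 and 1.99 on WT replicates 1 and 3. Both KO arrays lay between the WT arrays, and the difference was -0.12 (SE 0.46, 95% interval -1.37 to 1.13, limma adjusted p = 0.928). Gbp3 was at 2.81 and 2.09 in KO and at 2.41 and 3.85 in WT. WT replicate 3 was the high array, and the WT arrays alone differed 2.72-fold. The Gbp3 difference was -0.68 (SE 0.63, 95% interval -2.36 to 1.0, limma adjusted p = 0.743), which is 1.60-fold higher in WT and less than the spread of the WT arrays.

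Gbp5, a prenylated GBP tied in mouse macrophages to the NLRP3 inflammasome, had raw signals of 134 to 272 units, well above background on each array. Its level was -2.18 and -2.21 in KO, and -2.65 and -1.65 in WT. The KO arrays were almost alike, 0.03 apart, and sat in the middle of WT arrays that were 1.0 apart. The genotype difference of Gbp5 was -0.04 (SE 0.45, 95% interval -1.26 to 1.18, limma adjusted p = 0.977). Gbp7, which is linked to oxidative and autophagic killing in mouse macrophages, was at 0.30 and -0.27 in KO and at -0.28 and 1.09 in WT. Here too the KO arrays fell between the WT arrays, with a difference of -0.39 (SE 0.59, 95% interval -1.96 to 1.19, limma adjusted p = 0.814). Over the 4 chromosome 3 genes the differences ran from -0.68 to -0.04, with a median of -0.25.

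Gbp6, the one member on chromosome 5, had a different order. It was at 0.70 and 0.83 in KO and at 0.13 and 0.49 in WT. Both KO arrays were above both WT arrays, which held for 18.3% of all features. KO averaged 0.76 ± 0.09 and WT 0.31 ± 0.26 (SD, n = 2 each), a 1.37-fold higher level in KO. The difference was 0.46 (SE 0.33, 95% interval -0.43 to 1.34, exact permutation p = 0.333, limma adjusted p = 0.740). An additional Gbp6 probe was dimmer, at 0.33 and 0.19 in KO and at -1.78 and 0.22 in WT. On that probe KO replicate 4 was below WT replicate 3, so the genotypes overlapped, and the difference of 1.05 came mostly from the low value on WT replicate 1. The probe sequences are not given in the sources used here, and Gbp6 is closely related to its neighbour Gbp10, so a shared signal between them was not tested.

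**Figure D2:**
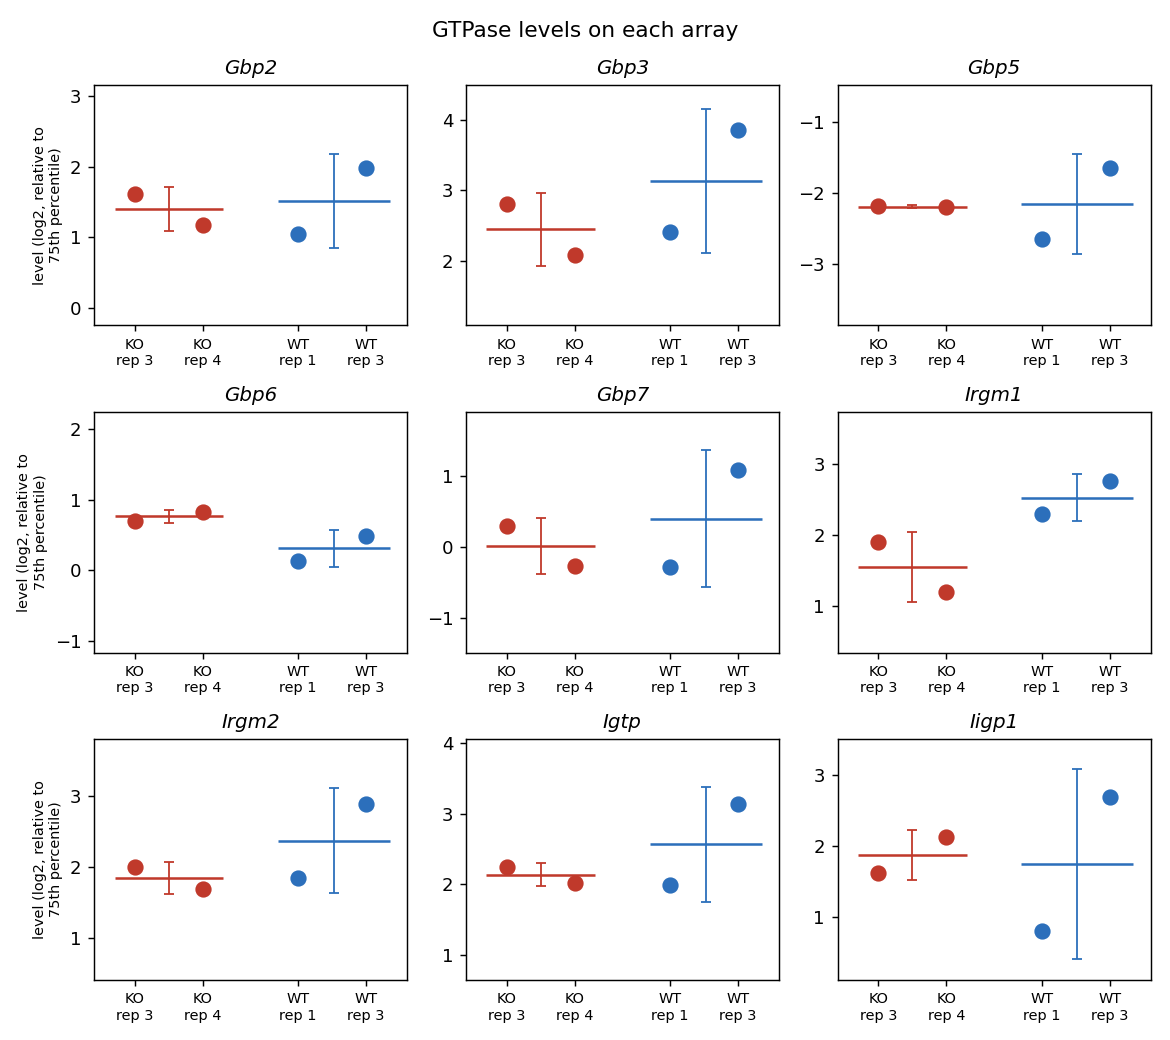
Level of each of the 9 GTPases on each array (y axis, log2 relative to the 75th percentile of the array; each panel spans the same range); KO arrays are red and left, WT arrays blue and right, with the mean (line) and SD (bar) of 2 arrays. WT replicate 3 is the highest point for 8 of the 9 genes, Gbp6 being the other one, and the KO arrays lie apart from the WT arrays for Irgm1 and Gbp6.

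Among the regulatory GMS proteins, Irgm1 had the largest difference of the 9 genes. Irgm1, whose loss in mice harms macrophages, blood stem cells and resistance to mycobacteria, was at 1.89 and 1.20 in KO and at 2.30 and 2.76 in WT. Both KO arrays were below both WT arrays, which held for 16.1% of all features. KO averaged 1.54 ± 0.49 and WT 2.53 ± 0.33 (SD, n = 2 each), so that Irgm1 was 1.98-fold higher in WT. The difference was -0.98 (SE 0.41, 95% interval -2.10 to 0.13, exact permutation p = 0.333, limma p = 0.0715, adjusted p = 0.740). An additional, dimmer Irgm1 probe gave the same order, at -0.29 and -0.99 in KO and at -0.01 and 0.38 in WT, with a difference of -0.83.

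Irgm2, a brake on caspase-11 activation in mouse macrophages, was at 2.01 and 1.69 in KO and at 1.85 and 2.90 in WT. WT replicate 1 lay between the KO arrays, and WT replicate 3 was above the other arrays. The difference was -0.52 (SE 0.48, 95% interval -1.81 to 0.76, limma adjusted p = 0.742). Igtp, its neighbour, was at 2.25 and 2.02 in KO and at 1.99 and 3.14 in WT, a difference of -0.43 (SE 0.50, 95% interval -1.77 to 0.91, limma adjusted p = 0.774). The Igtp probe is printed 10 times on each array, which gives the only technical error among the members. Over the spots used, its SD was 0.0310 and 0.0603 on the KO arrays, and 0.0435 and 0.0374 on the WT arrays. The WT arrays were 1.15 apart. The spread between spots leaves out labelling, hybridisation and animals.

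Iigp1, the effector IRG that coats and ruptures the parasitophorous vacuole of Toxoplasma, varied most between WT arrays. It was at 1.62 and 2.12 in KO and at 0.79 and 2.70 in WT. The WT arrays differed 3.74-fold and enclosed both KO arrays, and the genotype difference was 0.13 (SE 0.73, 95% interval -1.84 to 2.09, limma adjusted p = 0.952). A dimmer Iigp1 probe was at 0.62 and 1.03 in KO and at -0.82 and 1.59 in WT, in the same order, with a difference of 0.44.

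**Figure D3:**
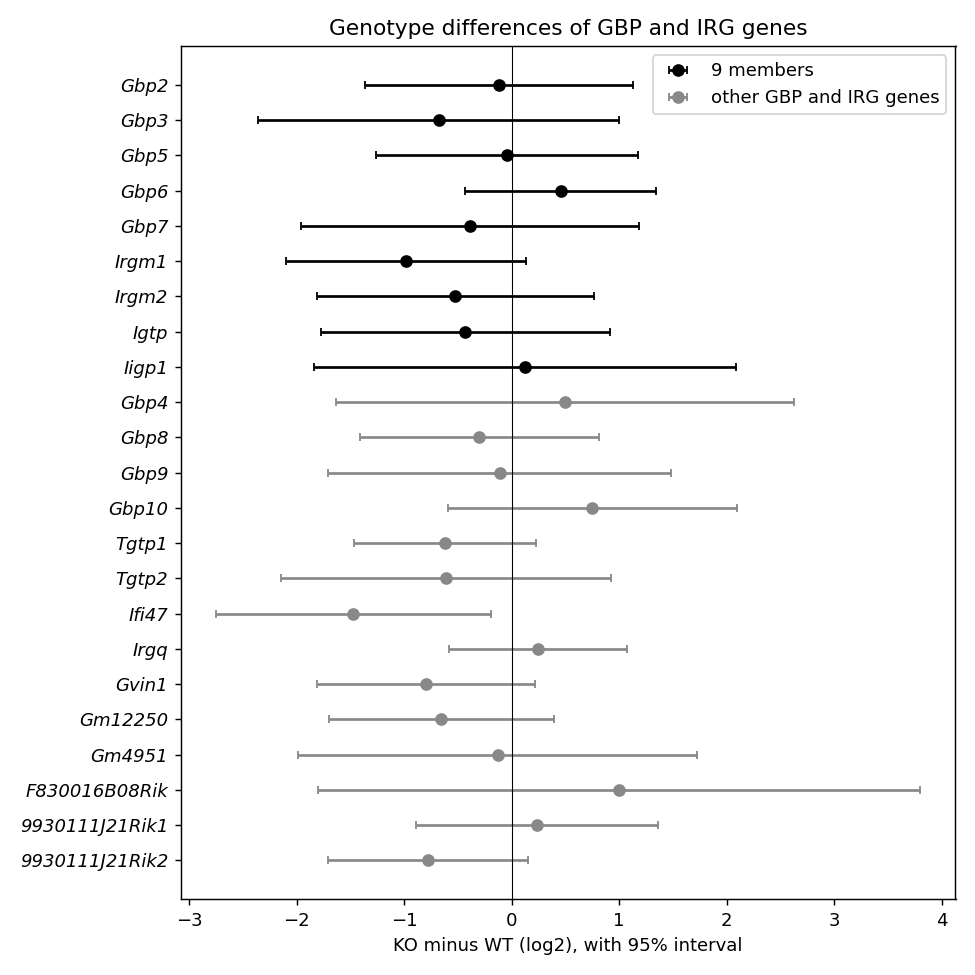
Genotype difference (x axis, KO minus WT, log2) of the 9 GTPases (black) and of the other GBP and IRG genes tested (grey), with the 95% interval of the limma fit. The 9 black intervals all cross 0, and those of Irgm1 and Iigp1 show the largest difference and the widest interval of the 9.

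Among the 9 genes, the gap between the WT arrays was mostly wider than the gap between the genotypes. WT replicate 3 was the highest of the 4 arrays for 8 of the 9 genes, against 7.46% of all features, and WT replicate 1 the lowest for 6, against 41.7%. WT replicate 3 was also the highest for all 13 other interferon-stimulated genes tested and for 6 of 7 OAS genes. Among further family genes tested, it was the highest for 6 of 10 IRG and related genes and 2 of 4 GBP genes. Both KO arrays lay between the WT arrays for 5 of the 9, against 11.2%. The WT arrays were farther apart than the genotype means for 7 of the 9, against 68.0% of all features. The gap between WT arrays ran from 0.36 to 1.90, and that between KO arrays from 0.03 to 0.73. It was wider in WT for 8 of the 9 genes, Irgm1 being the other one. As a median, WT replicate 3 was above WT replicate 1 by 1.05, against -0.000859 over all features.

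Set against WT replicate 3, both KO arrays were low. KO replicate 3 was below WT replicate 3 for 8 of the 9 genes, against 54.5% of all features, with differences from -1.07 for Iigp1 to -0.37 for Gbp2 among the 8. KO replicate 4 was below it for 8 as well, against 37.8%, with the largest gap for Gbp3 at -1.77. Set against WT replicate 1, the order turned. KO replicate 3 was above WT replicate 1 for 8 of the 9, against 49.3%, and KO replicate 4 for 6, against 55.2%. Irgm1 was the member for which both KO arrays were below both WT arrays, by -0.40 and -1.10 against WT replicate 1 and by -0.86 and -1.56 against WT replicate 3. Without WT replicate 1 the median difference of the 9 genes was -1.01, with 8 lower in KO. Without WT replicate 3 it was 0.30, with 1 lower, so that the median changed sign. In both fits WT is a single array that is assumed to vary like the KO arrays.

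**Figure D4:**
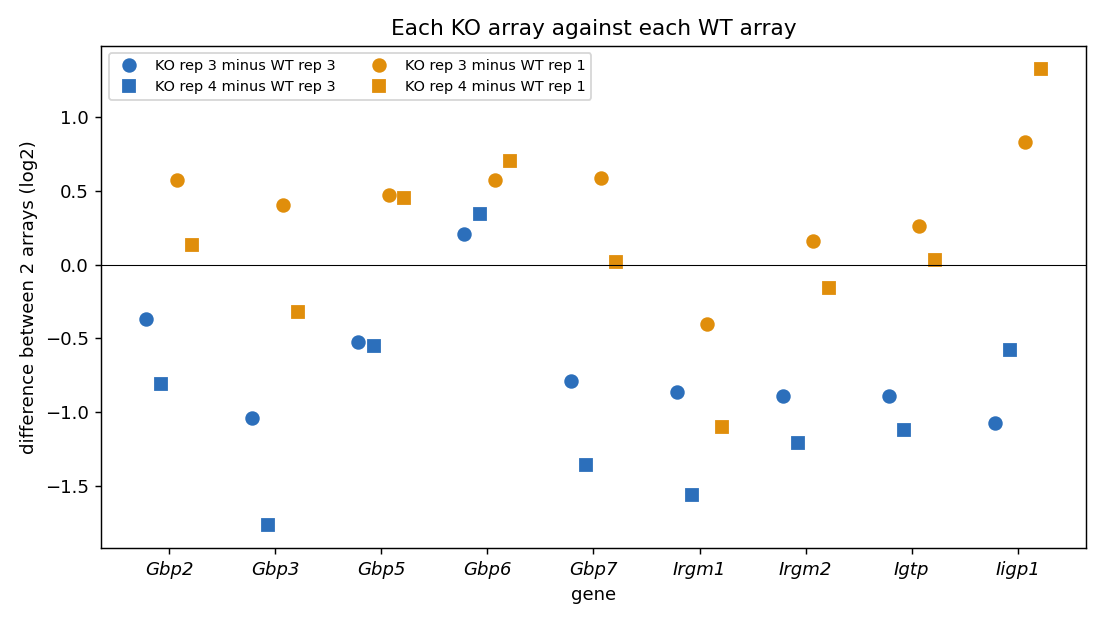
Difference in log2 level (y axis) between each KO array and each WT array for the 9 GTPases (x axis); blue points are set against WT replicate 3 and orange points against WT replicate 1, circles are KO replicate 3 and squares KO replicate 4. Blue points lie below 0 except for Gbp6, and orange points lie mostly above 0, with Irgm1 below 0 throughout.

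The pattern over the arrays was not the same for every member. Each gene was centred on its mean over the 4 arrays and set against the mean of the 9 centred genes, which was -0.01 and -0.28 on the KO arrays, and -0.40 and 0.68 on the WT arrays. Igtp was closest to that mean, with a root-mean-square distance of 0.0776 over 4 arrays, followed by Gbp2 (0.115), Irgm2 (0.121), Gbp5 (0.152) and Gbp7 (0.157). Gbp3 was at 0.287. Irgm1 (0.438), Iigp1 (0.447) and Gbp6 (0.470) were the members farthest from it.

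The genes outside the 9 with the most similar pattern were sought among 12911 genes well above background on all 4 arrays. Mal, Ly6a, BC049762, Cd274 and Mzf1 had the smallest distances, from 0.102 to 0.152, with only 4 arrays behind each. Ly6a, which encodes the surface protein Sca-1, was at 2.76 and 2.85 in KO and at 2.60 and 3.70 in WT. Cd274, which encodes the checkpoint ligand PD-L1, was at -0.14 and -0.70 in KO and at -0.44 and 0.59 in WT. Mal, a myelin and lymphocyte membrane protein, was at 1.81 and 1.67 in KO and at 1.71 and 2.68 in WT. In each of the 3, WT replicate 3 was the high array, which the choice by similar pattern largely fixed beforehand. Of the other GBP and IRG genes, Gbp9 ranked 12 and Tgtp2 ranked 18 in the same order of distance, whereas Ifi47 ranked 8711.

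The rest of the GBP family was measured less completely. Of 6 further GBP genes, 4 were tested, with 2 lower and 2 higher in KO and none passing the test. Gbp2b was not well above background on more than 1 array with either of its probes, and Gbp11 was matched to no probe. Gbp4 was at 0.22 and 0.12 in KO and at -1.41 and 0.76 in WT, a difference of 0.50 (SE 0.79). Gbp9 was at -0.87 and -1.03 in KO and at -1.59 and -0.09 in WT, a difference of -0.11 (SE 0.59). In both, the KO arrays lay between the WT arrays. Gbp10 was at -1.65 and -1.49 in KO and at -2.90 and -1.74 in WT, a difference of 0.75 (SE 0.50) with both KO arrays above both WT arrays, as for Gbp6. Gbp8 was dim, at -4.47 and -5.03 in KO and at -4.14 and -4.75 in WT, with a difference of -0.30 (SE 0.41).

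Of 11 further IRG and related genes, 10 were tested, with 7 lower and 3 higher in KO, a median difference of -0.61 and none passing the test. For 5 of them both KO arrays were below both WT arrays, against 16.1% of all features. Ifi47 (Irgd) was at 0.98 and -0.00 in KO and at 1.73 and 2.19 in WT, a difference of -1.47 (SE 0.48, limma adjusted p = 0.740). Like Irgm1, it was lower on both KO arrays than on either WT array. Gvin1, a very large interferon-inducible GTPase, was at 2.58 and 2.22 in KO and at 2.91 and 3.47 in WT, a difference of -0.79 (SE 0.38) with the same order. Tgtp2 (Irgb6), an effector IRG that coats the vacuole of Toxoplasma, was at 1.92 and 1.49 in KO and at 1.63 and 3.0 in WT, a difference of -0.61 (SE 0.57).

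Gm12250 (Irgb10), known in mice for acting with GBPs on bacterial membranes, was at -2.15 and -2.74 in KO and at -2.01 and -1.57 in WT, a difference of -0.65 (SE 0.39). The differences of the remaining IRG and related genes were -0.62 for Tgtp1, -0.77 for 9930111J21Rik2 and -0.13 for Gm4951, and 0.24 for 9930111J21Rik1, 0.25 for Irgq and 1.0 for F830016B08Rik. The probes of 9930111J21Rik2 and F830016B08Rik were well above background on 3 arrays each, WT replicate 1 being the other one, so that their differences rest in part on a value within background. Irgq is an IRG-like gene that is not known as an interferon target. Irgc1, a testis gene in mice, was well above background on 1 array and was not tested. Tgtp1 and Tgtp2 are near-identical copies, and whether their probes share signal was not tested.

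Signalling genes upstream of the GTPases were also on the arrays. Of 10 interferon-gamma signalling genes, 9 were tested, 8 of them lower in KO, with a median difference of -0.22 and none passing the test. Ifng itself, the ligand, was well above background on KO replicate 3 alone and was not tested. Ifngr1, the ligand-binding receptor chain, was at 4.19 and 4.25 in KO and at 4.39 and 4.07 in WT, a difference of -0.01 (SE 0.32). Ifngr2, the signalling chain, was at 3.02 and 3.34 in KO and at 1.99 and 2.75 in WT, a difference of 0.81 (SE 0.41, limma adjusted p = 0.740), with both KO arrays above both WT arrays.

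Irf1, a transcription factor needed for much of GBP induction in mice, was at 3.35 and 3.58 in KO and at 3.71 and 3.35 in WT, a difference of -0.06 (SE 0.34). WT replicate 3 was the highest array for 1 of the 9 interferon-gamma signalling genes tested, against 7.46% of all features. It was the highest for 4 of the 8 type I signalling genes described below. A link between these genes and the GTPase levels was not tested. The feedback inhibitor Socs1 had a difference of -1.15 (SE 0.68) and the factor Irf8 one of -0.74 (SE 0.51).

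For type I interferon signalling, 8 of 9 genes were tested and 7 were lower in KO, with a median difference of -0.69 and none passing the test. Stat2, a part of the factor that binds ISREs, was at 2.80 and 2.19 in KO and at 3.36 and 4.01 in WT, a difference of -1.19 (SE 0.43, limma adjusted p = 0.740). Its partner Irf9 differed by -0.76 (SE 0.39), and Usp18, a brake on the type I receptor, by -1.49 (SE 0.70). Both were lower on both KO arrays than on either WT array. Ifnb1 was well above background on no array.

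Other targets of interferon-gamma were tested for all 15 listed genes, with 11 lower and 4 higher in KO, a median difference of -0.51 and none passing the test. Nlrc5, the activator of MHC class I genes, was at 0.52 and -0.20 in KO and at 1.64 and 1.56 in WT, a difference of -1.44 (SE 0.39, limma adjusted p = 0.740). Psmb8, an immunoproteasome subunit, differed by -0.80 (SE 0.40). Ido1, a tryptophan-degrading enzyme, differed by 1.22 (SE 0.60). Its probe was well above background on 3 arrays but not on WT replicate 1, so the difference rests partly on a value within background.

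The proteins that place IRGs and GBPs on vacuoles include the conjugation machinery of autophagy. All 12 listed genes of it were tested, with 4 lower and 8 higher in KO, a median difference of 0.19 and none passing the test. Map1lc3b, an LC3 protein, was at 3.82 and 4.41 in KO and at 3.10 and 3.83 in WT, a difference of 0.65 (SE 0.44). Map1lc3a differed by 1.72 (SE 1.23) and Gabarapl1 by 0.37 (SE 0.31). The low value of Map1lc3a, -0.47, was on WT replicate 1, the array with low cardiomyocyte markers.

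GBPs help to expose bacterial lipopolysaccharide to caspase-11, which was listed with other inflammasome and related genes. All 9 listed genes were lower in KO in mean, with a median difference of -0.85 and none passing the test. Centred on each gene's mean, they averaged 0.00 and -0.94 on KO replicates 3 and 4. On WT replicates 1 and 3 they averaged 0.84 and 0.10. Casp4, the gene of caspase-11, was at 1.44 and 1.49 in KO and at 1.84 and 1.50 in WT, a difference of -0.20 (SE 0.32). Casp1 differed by -0.85 (SE 0.43), the cytokine gene Il18 by -1.61 (SE 0.48) and the nucleic acid sensor Zbp1 by -2.01 (SE 0.64), each with a limma adjusted p of 0.740.

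Other families induced by interferon were read beside the 9 GTPases. All 7 OAS genes tested were lower on both KO arrays than on either WT array, against 16.1% of all features, and at least 2-fold lower in mean, with a median difference of -1.76. The corresponding counts for the GTPases over the same 4 arrays were 1 of 9 and 0 of 9. Set against WT replicate 3 alone, the OAS medians were -1.46 for KO replicate 3 and -2.75 for KO replicate 4. The GTPase medians were -0.86 and -1.12 there. All 13 other interferon-stimulated genes tested were lower in KO in mean, with a median difference of -1.09, and 8 of them were at least 2-fold lower. At least 2-fold lower levels were found for 7.51% of all features. Among these, Oas3 differed by -2.33 (SE 0.47), Oas1g by -2.64 (SE 0.61), Oas2 by -1.20 (SE 0.36), Isg15 by -2.07 (SE 0.74), Rtp4 by -1.53 (SE 0.51) and Ddx58 by -1.09 (SE 0.43). The probes of Oas3 and Oas1g were not well above background on KO replicate 4, so that their differences rest in part on a value within background. None passed the test, and the difference between these lists and the GTPases was not tested.

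The centred means place the families side by side. For the OAS genes they were -0.36 and -1.44 on the KO arrays, and 0.76 and 1.04 on the WT arrays. The other interferon-stimulated genes were at -0.03 and -1.13 in KO and at 0.01 and 1.15 in WT, so that WT replicate 1 and KO replicate 3 were alike there. On WT replicate 1 the OAS genes were above their mean and the 9 GTPases below theirs, at -0.40. On WT replicate 3 all 3 families were above their means.

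**Figure D5:**
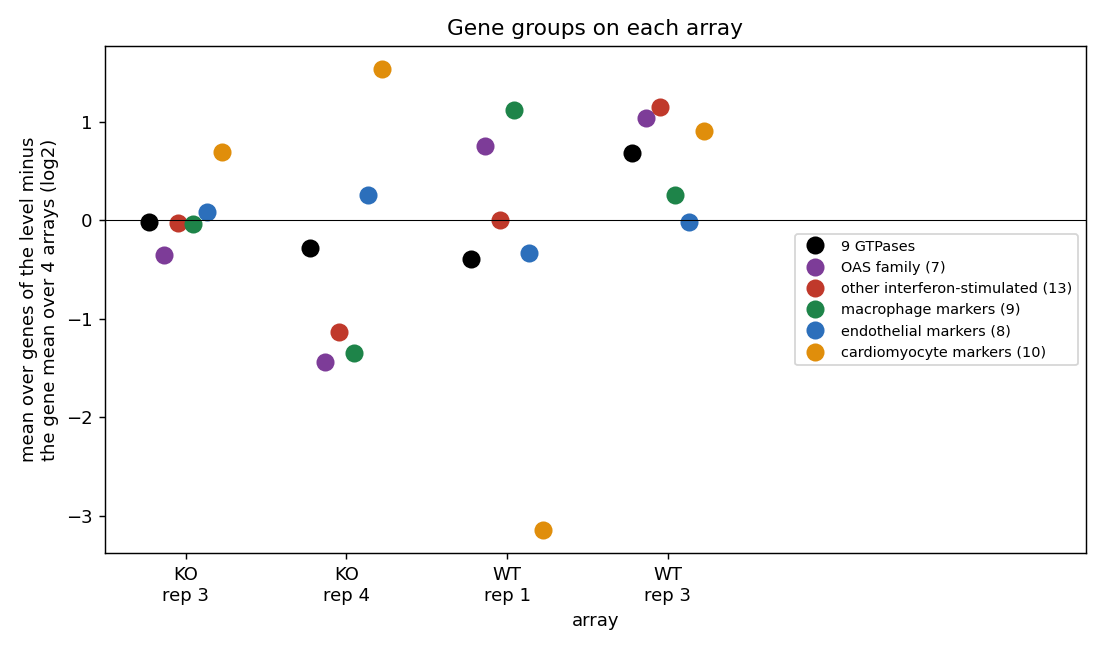
Mean over the genes of each group of the log2 level minus the gene's own mean over 4 arrays (y axis) on each array (x axis), for the 9 GTPases, 2 other interferon-induced groups and 3 marker lists; the number of genes is in the legend. The GTPases (black) are highest on WT replicate 3, at 0.68, and lowest on WT replicate 1, at -0.40, where cardiomyocyte markers (orange) are at -3.15 and macrophage markers (green) at 1.13.

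Whole hearts hold many cell types, and in such bulk samples fewer cells of a type and less RNA per cell cannot be told apart. Macrophage markers, 9 of 10 tested and all 9 lower in KO in mean, had mean levels of 2.44 and 1.13 on the KO arrays, and 3.61 and 2.74 on the WT arrays. Both KO arrays were below both WT arrays for 4 of the 9, against 16.1% of all features. The median of KO replicate 3 minus WT replicate 3 was 0.25. The macrophage mean was highest on WT replicate 1. That array was the lowest for 6 of the 9 GTPases but not for Irgm1, and a link between the 2 was not tested. Markers of T and NK cells, which make interferon-gamma, had means of -2.62 and -3.45 in KO and of -2.56 and -3.14 in WT over 9 of 11 genes. Klrb1c was well above background on no array and Ncr1 on 1.

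Endothelial markers were higher in KO for all 8 genes, with a median difference of 0.31, and had means of 0.59 and 0.77 in KO and of 0.17 and 0.49 in WT. Cardiomyocyte markers were higher in KO in mean for all 10 genes, with a median difference of 2.19. The genotypes were apart for 0 of the 10, against 34.4% of all features. Set against WT replicate 3, the medians were -0.19 for KO replicate 3 and 0.60 for KO replicate 4. Without WT replicate 1, the low array of that list, the members' median is the -1.01 given above. Over 6 genes, fibroblast markers had means of 4.26 and 3.48 in KO and of 3.94 and 3.90 in WT. Neutrophil markers had means of 0.13 and 0.67 in KO and of 1.49 and -0.38 in WT over 5 of 6 genes, and B cell markers of -1.77 and -5.36 in KO and of -2.06 and -4.15 in WT over 4 of 5 genes. No marker list had a gene that passed the test, and the part of these lists in the levels of the GTPases was not tested.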

How the data were processed

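RNA of infarcted hearts was measured on 4 1-colour Agilent arrays. Trizol extraction and Cy3 labelling are per the labels' protocols. Per the file headers, the deposited processed signal is a background-subtracted intensity read with Feature Extraction 11.0.1.1, whereas version 9.1 of it is named by the submitters' processing notes. Spot flags are other values, used as deposited. The deposited value table holds log2 values normalized by the authors in a way not given in the sources used here, and served as an alternative.

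Control and outlier spots were left out, spots of 1 probe were averaged, and log2 signals were scaled to the 75th percentile of each array. No saturated spot was found. A probe well above background on at least 2 of 4 arrays was kept, and the brightest one stood for its gene. Of 39429 probes, 27234 were named through the RefSeq accession and the GRCm38.p6 table. The genotypes were compared with limma 3.58.1 (lmFit, then eBayes) under R 4.3.3. Its two-sided p-values were adjusted by Benjamini-Hochberg over 22926 features, with a threshold of 0.05. The fit was tested on simulated data. The number of arrays limits precision. Columns of per-sample values left unused numbered 0.

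The members and lists were chosen with earlier results of these data known. The text names the 9 members, S1pr1, the other GBP and IRG genes, Ifng, Ifngr1, Ifngr2, Irf1 and Casp4. It also names up to 3 genes of smallest p of each further list and the 5 genes of most similar pattern. For marker lists, means, counts and median differences over genes are given. A further gene of the rule is not reported here. Irgc1, Gbp2b, Ifnb1, Klrb1c and Ncr1 are named to account for genes not tested. Alternatives were quantile and median scaling, normexp with an offset of 50, the deposited values, no filter and a stricter one, a common floor, averaged probes per gene, robust eBayes with a trend, each array left out, and the arrays numbered 3 alone.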

Additional observations from a re-analysis of the deposited data

How the results depend on the processing

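No member was called under the alternatives fitted, and nor was S1pr1, so the lack of calls says nothing of stability. With 1 array left out, the lone array of a genotype is assumed to vary like the other genotype. At an unadjusted p under 0.05, normexp gave 1 member (Irgm1, limma). With all 4 arrays, the median difference of the 9 genes stayed between -0.50 and -0.36 over 9 settings. With 1 array left out it ran from -1.01 (without WT replicate 1) to 0.30 (without WT replicate 3, when 1 of 9 genes was lower in KO). Irgm1 was negative in all 13 fits (-1.33 to -0.63; adjusted p 0.463 to 1.0) and Gbp6 positive in all 13 (0.27 to 0.75). With 1 array left out, Gbp2 ran from -0.59 to 0.35, Gbp3 from -1.40 to 0.043, Gbp5 from -0.54 to 0.46, Gbp7 from -1.07 to 0.30, Irgm2 from -1.05 to 0.000344, Igtp from -1.01 to 0.15 and Iigp1 from -0.82 to 1.08. With normexp, Gbp5 turned to 0.049; the cause was not tested. No paired analysis was possible because the genotypes share only the number 3. On the arrays numbered 3 alone, S1pr1 differed by -3.65, with no test. All-feature counts at an unadjusted p under 0.05 were 633 in the fit reported, 4251 without WT replicate 3, 1314 without KO replicate 3, 167 without KO replicate 4 and 380 without WT replicate 1. Signal over background limits dim genes such as Gbp8, most of all on WT replicate 1, where the lowest level above background was -4.43.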
